A study of Homo sapiens with 6 samples.

Results

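The genes of nucleotide excision repair and mismatch repair were followed through RNA-seq libraries of A549 cells, a cell line established from a human lung adenocarcinoma. The 35 genes were chosen by symbol from the 32192 genes of the count table. No rule on their measured values was used, but earlier results of these data were known. All 35 were also among the 31951 genes with an FPKM value (fragments mapped to a gene, scaled by transcript length and library depth). All 35 passed the filter on low counts, as did 16971 genes in all. The study asked whether APEX1 acts on the growth and death of lung cancer cells by way of alternative splicing, and the gene counts of the same libraries are described here. APEX1-OE denotes 3 libraries of A549 cells that received the overexpression plasmid, the pIRES-hrGFP-1a vector with a full-length APEX1 cDNA, and Ctrl denotes 3 libraries of A549 cells that received the control plasmid. The transfection was transient, all libraries came from this 1 cell line, and the chromosomal copies of APEX1 were present in both groups. The methods say only that experiments were done 3 times, and nothing in the sources used here says that the libraries of a group came from separate cultures, so the p-values measure the spread between these libraries, which may be technical.

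Nucleotide excision repair removes bulky lesions such as those made by ultraviolet light. A lesion is found either on its distortion of the helix or by a stalled RNA polymerase, the TFIIH complex opens the strands around it, nucleases cut the damaged strand on both sides, and a polymerase with its clamp and clamp loader fills the gap. Mismatch repair acts behind the replication fork, where heterodimers of MutS and MutL homologues find a mispaired base and an exonuclease removes the new strand past it. APEX1 itself is the main abasic-site endonuclease of base excision repair, a separate pathway. Several of the genes serve other processes too, since TFIIH is a general transcription factor, its kinase module activates cell-cycle kinases, and the clamp loader RFC and the single-strand binding protein RPA work in replication.

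The libraries held between 28131955 and 41009197 counts. The level of APEX1 was 689 ± 75.7 FPKM (SD, n = 3) in APEX1-OE and 126 ± 2.5 FPKM (SD, n = 3) in Ctrl, which edgeR put at 2.42 on the log2 scale (adjusted p = 0.00809). The call of APEX1 was lost in 4 of the 6 fits that left out a library, with an adjusted p of 0.118 and 0.0674 when the second or the third APEX1-OE library was left out, and of 0.210 and 0.207 when the first or the second Ctrl library was. Over all tested genes, 72.6% of the variance in log2 CPM (normalized counts per 1e6) lay on the first principal component, which parted the libraries into sets that crossed the conditions. The first set held APEX1-OE replicate 1 with Ctrl replicates 1 and 2, and the second set held APEX1-OE replicates 2 and 3 with Ctrl replicate 3. These sets were found in the same counts, so differences between them are descriptions, and neither the labels nor the methods give a batch that they match. Of 9 genes listed as A549 markers, the keratins KRT8, KRT18 and KRT7 stood at 1550 FPKM or more in every library, while the epithelial gene EPCAM stood between 0.18 and 0.52 FPKM. The summed level of the A549 markers was 9552 to 10766 FPKM in APEX1-OE and 9150 to 10652 FPKM in Ctrl. Markers of immune, endothelial and fibroblast cells, 6 of 7 of which had an FPKM value, summed to 2.16 to 3.78 FPKM in APEX1-OE and 3.17 to 4.0 FPKM in Ctrl, of which CD14 alone took 1.51 to 3.18 FPKM over the 6 libraries. COL1A1 stood at 0.50 to 0.73 FPKM, while CD3E, PECAM1, VWF and COL3A1 stood at or below 0.1 FPKM in every library and PTPRC had no FPKM value.

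The base composition of the genes turned out to go with the largest differences seen among the libraries, so coding sequence of 3 genes is shown first. PMS1 had the lowest GC content of the 35 canonical transcripts, 36.4%, and ERCC1, at 56.2%, was among the 8 at or above 50%. POLK had the largest positive difference of the second library set against the first, and ERCC1 the most negative one after XAB2. Each line gives the central 120 bases of the coding part of the gene's longest coding exon, read 5′ to 3′ on the coding strand from GENCODE release 44 on GRCh38, with G and C in capitals.
PMS1 (exon 9 of 13, plus strand, chr2:189854624-189854743): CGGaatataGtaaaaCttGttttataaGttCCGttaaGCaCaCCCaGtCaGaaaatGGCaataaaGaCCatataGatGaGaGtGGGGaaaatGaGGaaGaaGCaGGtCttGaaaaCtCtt
POLK (exon 13 of 15, plus strand, chr5:75596640-75596759): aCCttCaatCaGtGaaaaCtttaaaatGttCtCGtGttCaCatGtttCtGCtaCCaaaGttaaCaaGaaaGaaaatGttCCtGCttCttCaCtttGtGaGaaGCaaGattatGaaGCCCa
ERCC1 (exon 3 of 10, minus strand, chr19:45421226-45421345): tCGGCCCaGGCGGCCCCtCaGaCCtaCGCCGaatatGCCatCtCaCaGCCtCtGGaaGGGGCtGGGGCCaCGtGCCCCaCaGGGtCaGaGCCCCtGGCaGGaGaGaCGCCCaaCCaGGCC
In these stretches G and C made up 37.5% of the bases of PMS1, 35.8% of POLK and 69.2% of ERCC1.

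In Ctrl cells the repair genes spanned more than 2 orders of magnitude on the FPKM scale, which corrects for transcript length. The mean Ctrl level ran from 0.400 FPKM for the nuclease ERCC5 to 64.6 FPKM for DDB1, with a median of 4.0 FPKM over the 35 genes. A mean of at least 10 FPKM was reached by 10 genes, and 6 genes stayed under 1 FPKM. Counts ran from 56 for ERCC5 and EXO1 in APEX1-OE replicate 1 to 14013, and 5 genes had fewer than 100 counts in some library. At 56 counts the exact Poisson interval is 42.3 to 72.7 counts, which covers counting error only. The order of the 35 genes was nearly the same in APEX1-OE (Spearman rho 0.99 across genes, which share libraries and are not independent replicates). The sum over the genes was 312 ± 40.2 FPKM in APEX1-OE and 298 ± 12.4 FPKM in Ctrl (SD, n = 3 each), and the sums of single libraries overlapped, since APEX1-OE replicate 1 had the lowest of all with 267 FPKM. In RNA from whole cultures, fewer cells that use a gene and less RNA per cell cannot be told apart.

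**Figure D1:**
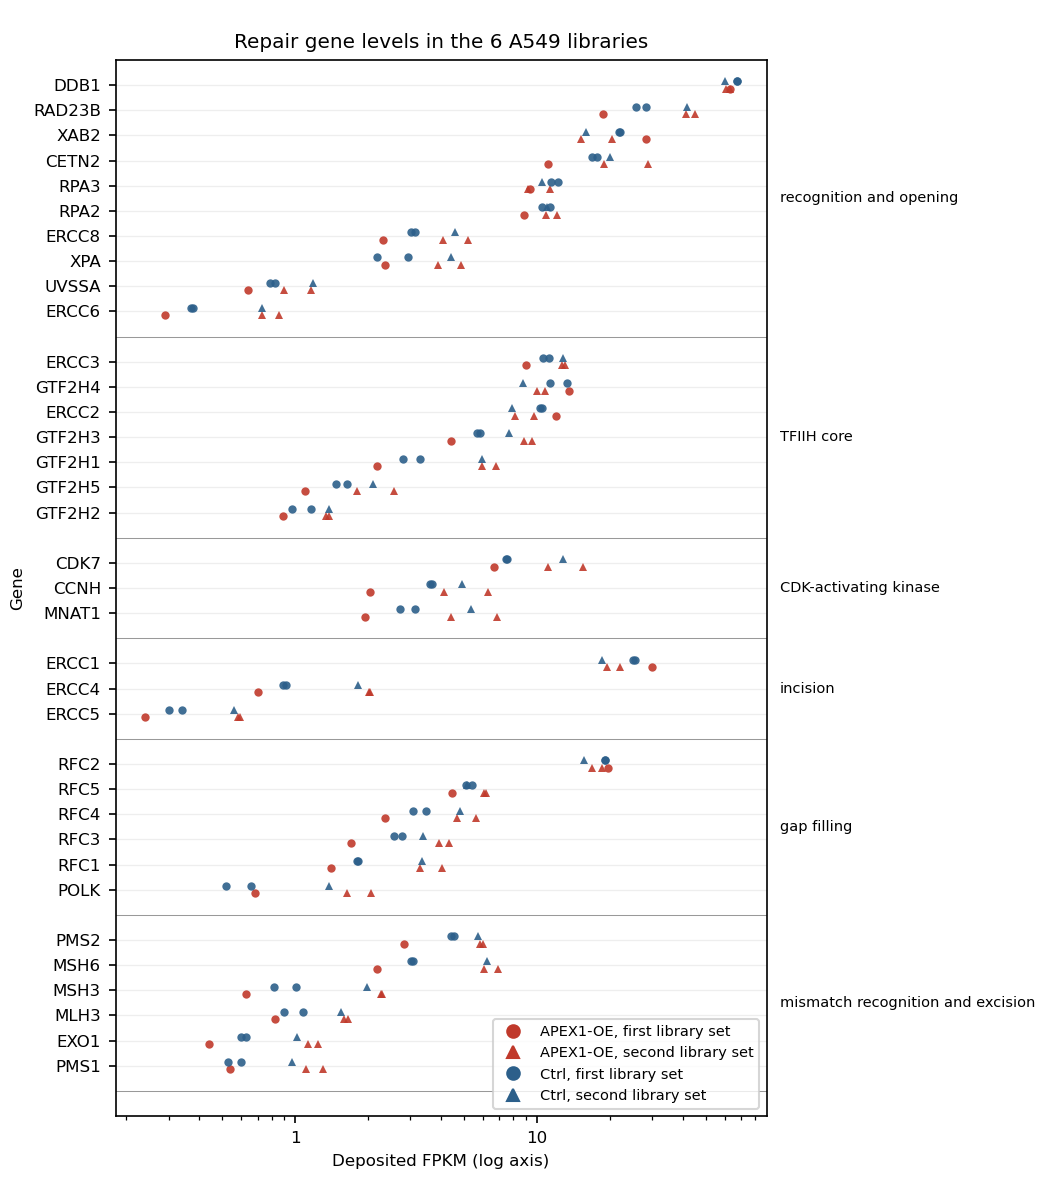
Deposited FPKM of the 35 repair genes (log axis), grouped by step of repair and ordered by Ctrl mean. Each point is 1 library, red for APEX1-OE and blue for Ctrl, circles for the first and triangles for the second library set; for most genes the triangles of both colours lie together, and the red and blue points overlap for all 35 genes.

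No repair gene differed between APEX1-OE and Ctrl beyond the spread between libraries. With the condition as the only term, edgeR's quasi-likelihood test called 0 of the 35 genes at an adjusted p under 0.05, against 0.00589% of all tested genes, which is APEX1 alone. An unadjusted p under 0.05 was reached by 0 of 35 as well, against 0.695% of all tested genes, and DESeq2 and limma-voom called 0 too. The APEX1-OE and Ctrl libraries overlapped for all 35 genes, while they did not overlap for 3.39% of all tested genes. Most of the differences were small and pointed up: 28 of the 35 genes (80%) had a higher estimate in APEX1-OE, against 57.5% of all tested genes, with a median log2 fold change of 0.10 against 0.03. The estimates lay between -0.22 for RPA3 and 0.74 for POLK, and every 95% interval held 0. For 11 genes the interval reached a 2-fold change, so a change of that size lies within it. The standard error was 0.186 to 0.472 with a median of 0.291.

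The direction of these small differences depended on whether the library set was in the model. With the library set as a term, 11 of 35 genes (31.4%) had a higher estimate in APEX1-OE, against 51.6% of all tested genes, and the median was -0.06. They were 6 of the 8 genes with a transcript GC content of at least 50% and 5 of the 27 under 50%. In that fit 18 genes went from a higher to a lower estimate and 1, DDB1, from a lower to a higher one, and 16 kept their sign. Again 0 of 35 genes were called, against 0.0236% of all tested genes, and the lowest adjusted p was 0.374. At an unadjusted p under 0.05, 5 of 35 genes were higher in APEX1-OE, against 8.61% of all tested genes, and 0 of 35 were lower, against 3.02%. Among those 5, XAB2, ERCC2, ERCC1 and GTF2H4 had a GC content of at least 50%. When GC content and length entered as an offset beside the library set, 19 of 35 genes had a higher estimate, against 52.0% of all tested genes. The median was then 0.02, and the unadjusted p of XAB2, ERCC2 and GTF2H4 in edgeR was 0.058, 0.088 and 0.069. That of ERCC1 in the same edgeR fit was 0.0080 (adjusted p = 0.245), at a log2 fold change of 0.18. With the library set as a term and no offset, no 95% interval reached a 2-fold change, and the furthest bound was 0.70, the upper one of POLK. The sets were drawn from the same counts, so standard errors (median 0.134), intervals and p-values with that term may be too small. This holds here and in what follows. The direction also differed within the sets, where each comparison has a single library on 1 side. APEX1-OE replicate 1 was above the mean of Ctrl replicates 1 and 2 for 9 of 35 genes, against 48.6% of all tested genes. The median difference was -0.25 on the log2 CPM scale, against -0.01. The mean of APEX1-OE replicates 2 and 3 was above Ctrl replicate 3 for 30 of 35 genes, against 62.2% of all tested genes, with a median of 0.08 against 0.05. In both sets 8 genes had a higher and 4 a lower value in APEX1-OE (22.9% and 11.4% of the 35, against 33.1% and 22.3% of all tested genes).

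**Figure D2:**
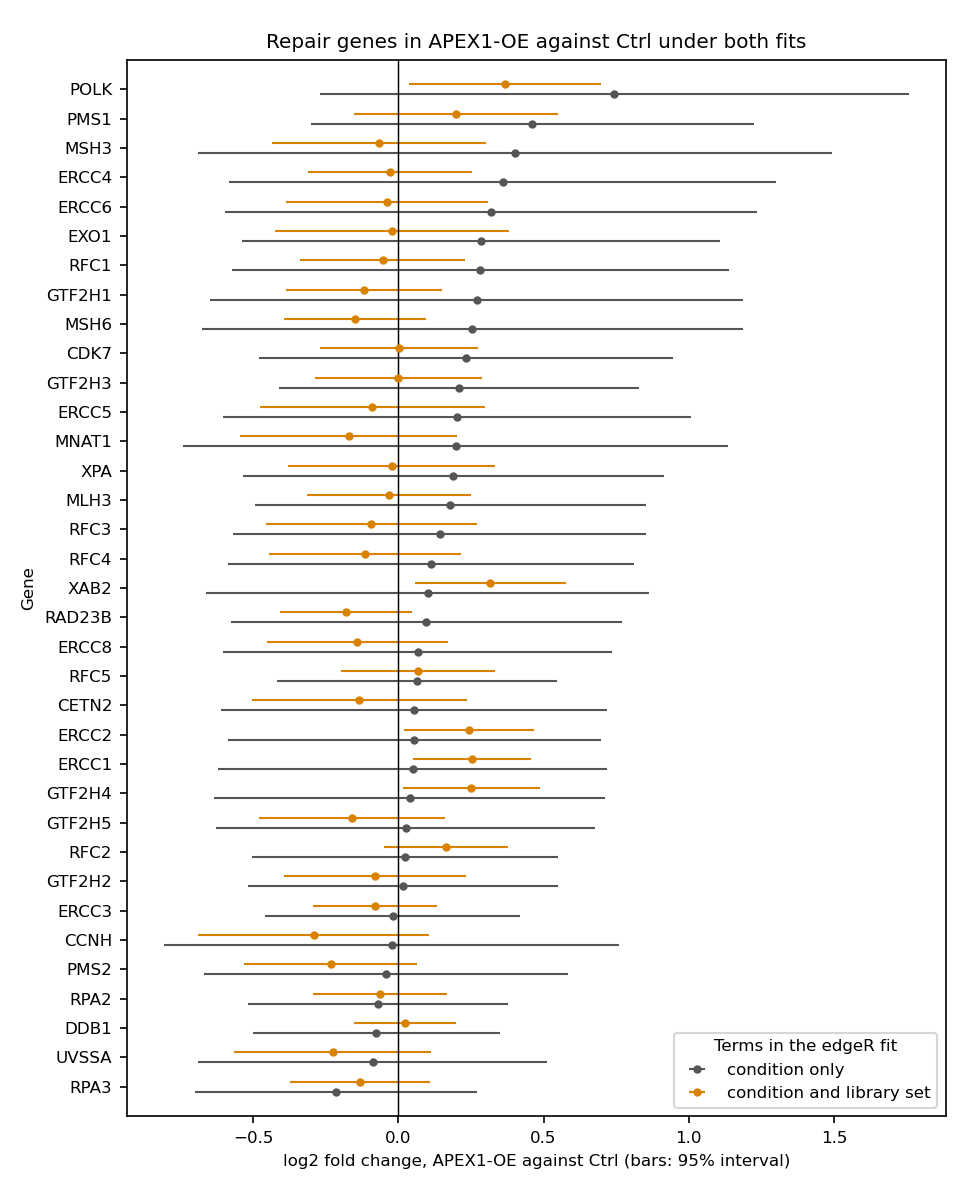
Log2 fold change of each repair gene in APEX1-OE against Ctrl with its 95% interval, in edgeR for the condition alone (grey) and with the library set as a second term (orange), ordered by the first. All 35 grey intervals hold 0, as do 30 of the orange ones, which are narrower, and the 5 orange intervals that lie above 0 belong to POLK, XAB2, ERCC2, ERCC1 and GTF2H4. The orange intervals may be too narrow, since the sets were drawn from the same counts.

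The largest estimate belonged to POLK (ENSG00000122008, chromosome 5, 75511845 to 75609991, plus strand), the translesion DNA polymerase kappa, which also takes part in the gap filling of excision repair. POLK stood at 0.68, 1.64 and 2.07 FPKM in APEX1-OE and at 0.52, 0.66 and 1.38 FPKM in Ctrl, from 106 to 523 counts a library, where values of single libraries stand in the order of replicates 1, 2 and 3 here and in what follows. The groups overlapped, because APEX1-OE replicate 1 lay far under Ctrl replicate 3. Within each library set every APEX1-OE library was above every Ctrl library, in the first set by little (0.68 against 0.66 FPKM). The share of all tested genes with this order was not computed, while 33.1% had a higher value in APEX1-OE in both sets when libraries were averaged. POLK was singled out for its estimate, so this order is a description. The log2 fold change was 0.74 (95% interval -0.27 to 1.76) for the condition alone and 0.37 (0.04 to 0.70) with the library set as a term (unadjusted p = 0.0312, adjusted p = 0.397 in edgeR). Within the sets the difference in log2 CPM was 0.32 and 0.41. When GC content and length entered as an offset beside the library set, the log2 fold change was 0.39 (unadjusted p = 0.00659, adjusted p = 0.234 in edgeR). That fit called 0 of 35 genes, against 0.13% of all tested genes. An unadjusted p under 0.05 was reached by 3 of the 35, POLK, ERCC1 and UVSSA, against 2061 of the 16971 tested genes. Without APEX1-OE replicate 3 the log2 fold change of POLK was 0.46, and without Ctrl replicate 3 it was 1.2. Among the counts, 144 exon bases of POLK lie opposite those of CERT1, a ceramide transfer protein gene with 204 to 876 counts.

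The other gap-filling genes are the subunits of RFC, the complex that loads the sliding clamp onto DNA. RFC2 (ENSG00000049541, chromosome 7, 74231499 to 74254458, minus strand), a small subunit, was the most abundant with 19.7, 18.6 and 16.9 FPKM in APEX1-OE and 19.1, 19.0 and 15.7 FPKM in Ctrl. Its levels nearly coincided between the groups, with a log2 fold change of 0.02. RFC1, the large subunit, stood at 2.91 ± 1.36 FPKM in APEX1-OE and 2.33 ± 0.892 FPKM in Ctrl (SD, n = 3 each), RFC3 at 3.31 ± 1.41 and 2.90 ± 0.424 FPKM, RFC4 at 4.21 ± 1.67 and 3.79 ± 0.913 FPKM, and RFC5 at 5.56 ± 0.946 and 5.21 ± 0.169 FPKM. For these 4 subunits the difference between the means was smaller than the SD within APEX1-OE. RFC1, RFC3 and RFC4 were higher in every library of the second set than in every library of the first, RFC2 was lower, and RFC5 overlapped. The ratio of RFC2 to RFC1 accordingly ran from 10.5 to 14.0 in the first set and from 4.16 to 5.69 in the second, while its mean was 7.94 ± 5.27 in APEX1-OE and 8.56 ± 3.36 in Ctrl (SD, n = 3; exact two-sided permutation test, p = 0.9).

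The recognition and opening genes held both the most abundant gene of all and some of the scarcest. DDB1 (ENSG00000167986, chromosome 11, 61299451 to 61342596, minus strand), an adaptor of the CUL4 ubiquitin ligase that acts at ultraviolet lesions, stood at 62.7, 62.8 and 60.4 FPKM in APEX1-OE and at 66.9, 67.1 and 60.0 FPKM in Ctrl. Its standard error was the smallest of the 35 genes, and its log2 fold change was -0.08 (95% interval -0.50 to 0.35). ERCC6 (ENSG00000225830, chromosome 10, 49454168 to 49539538, minus strand), the remodeller that starts repair at a stalled polymerase, stood at 0.29, 0.73 and 0.86 FPKM in APEX1-OE and at 0.37, 0.38 and 0.73 FPKM in Ctrl. Its low and high values followed the library sets, from 0.29 to 0.38 FPKM in the first and from 0.73 to 0.86 FPKM in the second. ERCC8, its partner in transcription-coupled repair, stood at 3.86 ± 1.45 FPKM in APEX1-OE and 3.59 ± 0.876 FPKM in Ctrl (SD, n = 3 each). UVSSA, which steadies ERCC6 there, stood at 0.900 ± 0.260 and 0.937 ± 0.220 FPKM. It was the gene with the lowest estimate after RPA3, a log2 fold change of -0.09, and it had a lower value in APEX1-OE within both library sets. With the library set and the offset for GC content and length its log2 fold change was -0.28 (unadjusted p = 0.050, adjusted p = 0.412 in edgeR).

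XAB2 (ENSG00000076924, chromosome 19, 7619525 to 7629545, minus strand), a splicing factor that binds the damage-verifying protein XPA, stood at 28.3, 20.3 and 15.2 FPKM in APEX1-OE and at 22.1, 21.9 and 15.9 FPKM in Ctrl. It moved opposite to ERCC6, with its highest value in APEX1-OE replicate 1, and its groups overlapped. The log2 fold change was 0.10 without and 0.32 with the library set as a term (standard error 0.122, unadjusted p = 0.0201, adjusted p = 0.374 in edgeR). XPA itself stood at 3.70 ± 1.27 FPKM in APEX1-OE and 3.18 ± 1.14 FPKM in Ctrl (SD, n = 3 each). RAD23B and CETN2, which belong to the sensor complex of global genome repair, stood at 35.0 ± 14.1 and 19.6 ± 8.85 FPKM in APEX1-OE, and at 31.9 ± 8.65 and 18.2 ± 1.69 FPKM in Ctrl. Neither difference exceeded the SD of the APEX1-OE libraries. RPA3 (ENSG00000106399, chromosome 7, 7636518 to 7718607, minus strand), the smallest subunit of the RPA heterotrimer that coats the opened strand, stood at 9.33, 9.17 and 11.4 FPKM in APEX1-OE and at 12.2, 11.4 and 10.5 FPKM in Ctrl. It had the lowest estimate of the 35 genes, -0.22 (95% interval -0.70 to 0.27), and its groups overlapped through APEX1-OE replicate 3. RPA2, the middle subunit, stood at 10.6 ± 1.61 FPKM in APEX1-OE and 10.9 ± 0.430 FPKM in Ctrl (SD, n = 3 each), and neither RPA gene parted the library sets.

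The 7 core genes of TFIIH lay between 1.17 FPKM for GTF2H2 and 11.5 FPKM for ERCC3 in Ctrl, although their products meet in the same complex. ERCC3 (ENSG00000163161, chromosome 2, 127257290 to 127294166, minus strand), the translocase that opens the helix, stood at 8.98, 12.75 and 13.01 FPKM in APEX1-OE and at 11.2, 10.6 and 12.8 FPKM in Ctrl, a log2 fold change of -0.02. GTF2H2 (ENSG00000145736, chromosome 5, 71035016 to 71067689, minus strand), the subunit that stimulates the helicase ERCC2, stood at 0.89, 1.34 and 1.38 FPKM in APEX1-OE and at 1.16, 0.97 and 1.38 FPKM in Ctrl. It has a near copy in GTF2H2C, 99.7% alike over 1713 bases, with 176 to 444 counts, so its own level is uncertain. Summed with that copy, the log2 difference between the groups was 0.07. GTF2H4 (ENSG00000213780, chromosome 6, 30908207 to 30914106, plus strand), which holds ERCC3 in the complex, stood at 13.6, 10.8 and 10.0 FPKM in APEX1-OE and at 13.4, 11.3 and 8.74 FPKM in Ctrl. Its lowest value was in Ctrl replicate 3, and the highest was in APEX1-OE replicate 1. With the library set as a term GTF2H4 was at 0.25 on the log2 scale (standard error 0.110, unadjusted p = 0.0379, adjusted p = 0.407 in edgeR), and ERCC2, the helicase that scans for the lesion, at 0.24 (standard error 0.105, unadjusted p = 0.0360, adjusted p = 0.405). With the condition alone both were near 0, at 0.04 and 0.05. GTF2H1 and GTF2H3, scaffold subunits, stood at 4.96 ± 2.43 and 7.58 ± 2.78 FPKM in APEX1-OE and at 4.0 ± 1.69 and 6.38 ± 1.14 FPKM in Ctrl, and GTF2H5, the smallest subunit, at 1.82 ± 0.730 and 1.74 ± 0.332 FPKM (SD, n = 3 each). The ratio of the helicase subunits, ERCC3 over ERCC2, was 0.746 to 1.09 in the first library set and 1.32 to 1.62 in the second, and did not differ between the groups beyond their spread (exact two-sided permutation test, p = 0.9).

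The kinase module of TFIIH showed the same spread in all 3 of its genes. CDK7 (ENSG00000134058, chromosome 5, 69234795 to 69277430, plus strand), the catalytic subunit, stood at 6.66, 11.2 and 15.5 FPKM in APEX1-OE and at 7.44, 7.49 and 12.8 FPKM in Ctrl. MNAT1 (ENSG00000020426, chromosome 14, 60734742 to 60969965, plus strand), the assembly factor of the kinase, stood at 1.95, 4.43 and 6.82 FPKM in APEX1-OE and at 3.12, 2.71 and 5.34 FPKM in Ctrl. For both genes the 3 libraries of the second set were the highest. CCNH, the cyclin subunit, stood at 4.15 ± 2.12 FPKM in APEX1-OE and 4.07 ± 0.725 FPKM in Ctrl (SD, n = 3 each), and 771 of its exon bases lie opposite exons of RASA1. The log2 fold changes were 0.23 for CDK7, 0.20 for MNAT1 and -0.02 for CCNH for the condition alone, and 0.0013 for CDK7, -0.17 for MNAT1 and -0.29 for CCNH with the library set as a term. The ratio of CDK7 to CCNH was 2.80 ± 0.404 in APEX1-OE and 2.23 ± 0.322 in Ctrl (SD, n = 3; exact two-sided permutation test, p = 0.2).

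Among the incision nucleases, the partners ERCC1 and ERCC4 moved in opposite directions between the library sets. ERCC1 (ENSG00000012061, chromosome 19, 45407334 to 45478828, minus strand), the non-catalytic partner that places the nuclease on DNA, stood at 29.9, 22.0 and 19.4 FPKM in APEX1-OE and at 25.47, 25.02 and 18.57 FPKM in Ctrl. ERCC4 (ENSG00000175595, chromosome 16, 13920138 to 13952348, plus strand), the catalytic partner, stood at 0.70, 2.02 and 2.05 FPKM in APEX1-OE and at 0.92, 0.89 and 1.82 FPKM in Ctrl. ERCC1 was thus highest, and ERCC4 lowest, in APEX1-OE replicate 1. The ratio of ERCC1 to ERCC4 was 42.7, 10.9 and 9.47 in APEX1-OE and 27.7, 28.1 and 10.2 in Ctrl (exact two-sided permutation test, p = 0.9), so it parted the library sets and not the groups. ERCC5 (ENSG00000134899, chromosome 13, 102845831 to 102875995, plus strand), the nuclease that cuts on the other side of the lesion, was the scarcest of the 35 genes, with 0.24, 0.59 and 0.58 FPKM in APEX1-OE and 0.30, 0.34 and 0.56 FPKM in Ctrl. It shares 3641 exon bases with the readthrough gene BIVM-ERCC5, which had 71 to 382 counts, and summed with it the log2 difference was 0.13. With the library set as a term ERCC1 was at 0.25 on the log2 scale (standard error 0.0949, unadjusted p = 0.0176, adjusted p = 0.374 in edgeR), the lowest unadjusted p of the 35 genes in that fit, and ERCC4 was at -0.03. ERCC1 shares 1593 exon bases with POLR1G, an RNA polymerase I subunit gene on the opposite strand with 1310 to 2165 counts.

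The 6 mismatch repair genes stood in Ctrl at 0.700 FPKM (PMS1) to 4.88 FPKM (PMS2), with PMS2 and MSH6 above the median of the 35 genes. PMS1 (ENSG00000064933, chromosome 2, 189784085 to 189877629, plus strand), a MutL homologue, stood at 0.54, 1.11 and 1.31 FPKM in APEX1-OE and at 0.53, 0.60 and 0.97 FPKM in Ctrl, from 87 to 266 counts a library. It had the second highest estimate of the 35 genes, a log2 fold change of 0.46 (95% interval -0.30 to 1.22), and 0.20 with the library set as a term. PMS2 (ENSG00000122512, chromosome 7, 5970925 to 6009130, minus strand), the MutL homologue that nicks the new strand, stood at 2.83, 5.98 and 5.81 FPKM in APEX1-OE and at 4.42, 4.53 and 5.69 FPKM in Ctrl, a log2 fold change of -0.04. The ratio of PMS2 to PMS1 was 5.24, 5.39 and 4.44 in APEX1-OE and 8.34, 7.55 and 5.87 in Ctrl, so the groups did not overlap (exact permutation test, two-sided, p = 0.1, the lowest possible with 3 against 3 libraries, and 0.45 adjusted over the 9 ratios of partner genes computed). These ratios were chosen after the values had been seen. PMS2 has many near copies, such as PMS2CL, 98.0% alike over 1448 bases, with 463 to 773 counts, and summed with PMS2CL its log2 difference between the groups was 0.0048.

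MSH3 (ENSG00000113318, chromosome 5, 80654652 to 80876815, plus strand), the MutS homologue for larger loops, stood at 0.63, 2.28 and 2.27 FPKM in APEX1-OE and at 0.82, 1.01 and 1.98 FPKM in Ctrl. Its estimate was the third highest, a log2 fold change of 0.40 (95% interval -0.69 to 1.49), and turned to -0.07 with the library set as a term. MSH6, the homologue for single mismatches, stood at 5.04 ± 2.51 FPKM in APEX1-OE and 4.11 ± 1.84 FPKM in Ctrl (SD, n = 3 each), and MLH3, a further MutL homologue, at 1.36 ± 0.460 and 1.18 ± 0.336 FPKM. The ratio of MSH6 to MSH3 was steadier than either gene, 3.06 ± 0.412 in APEX1-OE and 3.29 ± 0.352 in Ctrl (SD, n = 3; exact two-sided permutation test, p = 0.4). EXO1, the exonuclease that removes the new strand, stood at 0.937 ± 0.434 and 0.750 ± 0.234 FPKM. All 6 genes were higher in every library of the second set than in every library of the first, against 35.5% of all tested genes. All 6 have a transcript GC content under 50%. Their median difference between the sets was 0.82 on the log2 CPM scale, against 0.57 over all tested genes under 50%. Their median log2 fold change was 0.27 without and -0.05 with the library set as a term. The exons of MSH6 overlap those of FBXO11, on the opposite strand, by 4022 bases. Such an overlap with a protein-coding gene was found for 12 of the 35 genes, and 3 (GTF2H2, PMS2 and CDK7) have a near copy elsewhere in the genome.

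Across all 35 genes the difference between the library sets exceeded edgeR's log2 fold change between the conditions in size for 33. The sets were split along the main axis of variance of these same counts, so a larger difference between them was likely in advance for any genes. The share over all tested genes was not computed, and the count is no result about the repair genes. The median size was 0.58 for the difference in mean log2 CPM between the sets and 0.11 for edgeR's log2 fold change between the conditions. Over all tested genes these figures were 0.50 and 0.13. The 2 measures are computed differently, so they compare only roughly. In the second set 24 of 35 genes were higher in every library than in the first, against 35.5% of all tested genes, and 6 of 35 were lower, against 30.9%. The 6 lower genes were XAB2, ERCC1, GTF2H4, ERCC2, RFC2 and DDB1, with differences from -0.68 to -0.29. The largest positive differences were 1.25 for POLK, 1.24 for MSH3 and 1.05 for ERCC4, or 2.38-fold, 2.36-fold and 2.08-fold. For UVSSA, CETN2, RPA2, RPA3 and RFC5 the sets overlapped. Within the conditions the median difference between the sets was 0.79 in APEX1-OE and 0.40 in Ctrl.

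**Figure D3:**
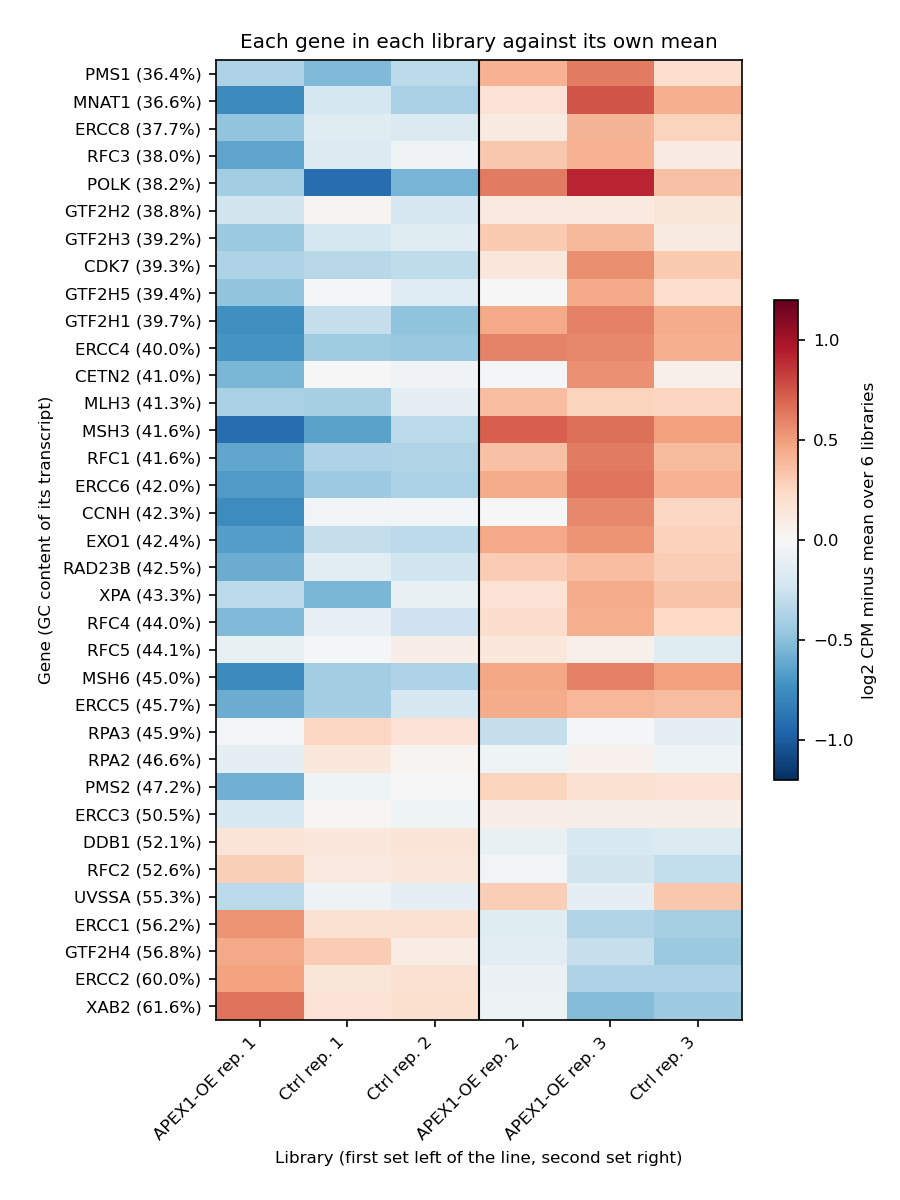
Log2 CPM of each repair gene in each library minus the mean of that gene over the 6 libraries (red above, blue below), with the libraries grouped by set and the genes ordered by the GC content of the transcript, printed beside each name. The genes in the upper rows are blue on the left and red on the right, and 6 of the 8 genes with a GC content of at least 50% show the reverse.

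These differences followed base composition. Of the 27 genes whose canonical transcript had a GC content under 50%, 23 were higher in the second set, 0 were lower and 4 overlapped, with a median difference of 0.63, against 0.57 over all tested genes of that range. Of the 8 genes at or above 50%, 6 were lower, 1 (ERCC3) was higher and 1 (UVSSA) overlapped, with a median of -0.45, against -0.42. Over all tested genes of any GC content, 35.5% were higher and 30.9% lower in every library of the second set. Such shares were not computed within the 2 ranges, so these counts cannot show whether the repair genes differ from other genes of like GC content. Across the 35 genes the difference between the sets had a Pearson's r of -0.80 and a Spearman's rho of -0.64 with GC content, and across the 16746 tested genes with a GC value the figures were -0.79 and -0.81. The genes of such a correlation share the 6 libraries. The repair genes had a median GC content of 42.4%, against 49.6% over all tested genes. The log2 fold changes with the condition alone went with the differences between the sets (r 0.71, rho 0.82 across the 35 genes). Both were computed from the same 6 libraries, and the second set holds 2 of the 3 APEX1-OE and 1 of the 3 Ctrl libraries, so they are not independent. When such an offset took the place of the library set, 20 of 35 genes had a higher estimate in APEX1-OE, with a median of 0.05.

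**Figure D4:**
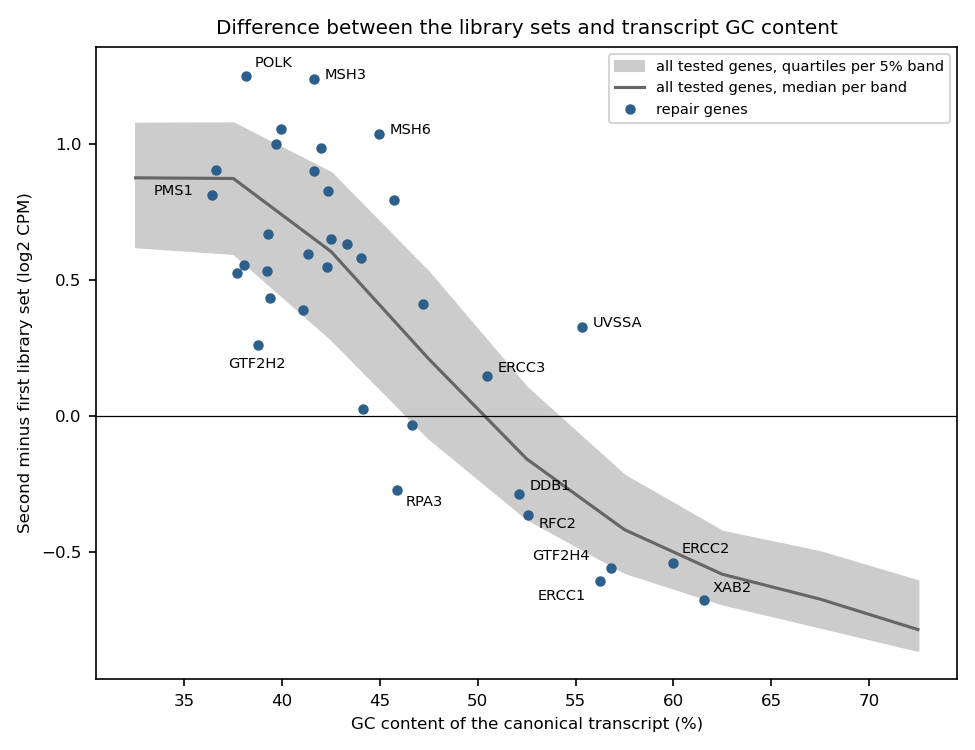
Difference between the second and the first library set (log2 CPM) against the GC content of the canonical transcript, for the 35 repair genes (points) and all tested genes (line, median per band of 5 percentage points; grey band, quartiles). The points run from above 1 near 40% GC to -0.68 for XAB2, along the line of all genes. Members lie outside the grey band on both sides, such as POLK, MSH3, MSH6 and UVSSA above it and GTF2H2 and RPA3 below it.

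Other genes listed for these pathways, outside the 35, were described together, and the part of each in repair was not tested. They were the CUL4 ligase genes CUL4A, CUL4B and RBX1, RPA1, the clamp PCNA, subunits of the polymerases delta and epsilon, the ligase LIG1 and SSBP1. All 15 were tested, 0 were called by edgeR with either model, and 0 had an unadjusted p under 0.05 with the condition alone. In that fit 7 of 15 had a higher estimate in APEX1-OE, against 57.5% of all tested genes, with a median log2 fold change of -0.0042 and a range from -0.16 to 0.34. With the library set as a term 3 of 15 had an unadjusted p under 0.05, all higher in APEX1-OE, against 8.61% of all tested genes, and 7 of 15 had a higher estimate, against 51.6%. Of 10 proliferation genes, 0 were called, 9 had a higher estimate with the condition alone (median 0.12) and 4 with the library set as a term (median -0.03), where 2 of 10 had an unadjusted p under 0.05, both higher in APEX1-OE. Their summed level was 91.7 to 109 FPKM in APEX1-OE and 95.8 to 101 FPKM in Ctrl, and its part in the levels of the repair genes was not tested.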

How the data were processed

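RNA of A549 cells was sequenced as stranded, paired-end mRNA libraries, 3 of APEX1-OE and 3 of Ctrl, grouped by the sample labels. The authors trimmed the reads, aligned them to GRCh38 with TopHat2 and deposited raw read counts per gene from uniquely mapped reads, with no normalization. The deposited FPKM values were made by the authors from those reads as well. Which counting tool and annotation were used, and whether counting used strand, were points not given in the sources used here, so reads of genes that overlap on opposite strands may not be separated.

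Counts were analysed in R 4.3.3 with edgeR 4.0.16: filterByExpr (minimum count 10, minimum total 15), TMM, a robust quasi-likelihood F-test with condition as sole term, and Benjamini-Hochberg adjustment at 0.05 over all 16971 tested genes. Standard errors were the log2 fold change divided by the square root of F, and 95% intervals used the t distribution. Levels between genes were compared in FPKM only. Ratios of partner genes were tested with exact two-sided permutation tests, which cannot go below 0.1 here. Alternatives were DESeq2 1.42.0, limma-voom and limma 3.58.1 on log2(FPKM + 1) and log2(FPKM + 0.1), other normalizations and filters, each library left out, the replicate number as a block, the library set as a term, and an offset per gene and library from splines (5 degrees of freedom) on GC content and length. GC content came from the canonical transcripts of GENCODE release 44, which held 31231 of the 32192 gene identifiers (97.0%). Near copies were transcripts of other genes at least 95% alike over at least 300 bases.

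The 35 genes and all lists (other genes of the pathways, proliferation genes, A549 markers and markers of other cell types) were chosen with earlier results of these data known. All 35 genes were described, with values in every library for the 3 with the lowest unadjusted p, the highest and lowest of each step of repair by Ctrl FPKM, and the 3 most positive and most negative differences between the library sets. The closest pair of libraries, Ctrl replicates 1 and 2, differed beyond sampling noise (chi-square per degree of freedom 3.79). Splicing was not analysed here, and some items, 1 gene of the list of other pathway genes among them, are not reported here.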

Additional observations from a re-analysis of the deposited data

How the results depend on the processing

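For the repair genes the count of called genes was 0 in each of the 18 alternatives, a measure that says little here, since most adjusted p-values were near 1 and APEX1 itself lost its call in 4 fits. Between 0 and 19 of the 35 estimates changed sign, with 19 when the library set was a term, 13 with the offset for GC content and length beside it, 10 with the offset alone, and 9 each without APEX1-OE replicate 1, APEX1-OE replicate 3 or Ctrl replicate 3. The number of repair genes with a higher estimate was 28, but 11 with the library set as a term and 19 with the offset beside it. It was 9 within the first library set, where the median was -0.25. With a library left out it lay between 19 and 27, and the median between 0.01 without APEX1-OE replicate 3 and 0.33 without APEX1-OE replicate 1 (0.23 without Ctrl replicate 3). Over all genes 1 was called, and 10 with no filter on low counts, 4 with the library set, 22 with the offset and the set, and 0 to 1 with a library left out. The log2 fold change of APEX1 then lay between 2.36 and 2.46. The median difference between the library sets was 0.55, and 0.79 within APEX1-OE only. The causes were not tested. Same-numbered libraries did not all deviate together (correlations 0.61, -0.52 and 0.70). The libraries numbered 1 share a library set, as do those numbered 3, while those numbered 2 do not. These correlations therefore cannot show whether the numbers pair the samples. With the replicate number as a block 2 genes were called over all, 0 of the repair genes, of which 26 had a higher estimate. At the lowest counts, 56 for ERCC5 and EXO1, the exact Poisson interval was 42.3 to 72.7 counts.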
